A study of Mus musculus with 4 samples.

Results

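Transcripts of 8 genes for metabolism and transport in hepatocytes were read in cultured explants of the mouse aorta-gonad-mesonephros region (AGM), where the first definitive haematopoietic stem cells emerge. Abcc2 and Slco1b2 encode transporters, Cps1, Otc, Ass1 and Arg1 enzymes of the urea cycle, Hpd an enzyme of tyrosine breakdown and Fbp1 an enzyme of gluconeogenesis. They were taken by name from the 49997 genes of the count tables, with the comparison of the treatment groups already known. Their own difference between the groups is therefore a description and carries no test.

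The 4 libraries were made from poly(A) RNA of C57BL/6J AGM explants, 2 untreated and 2 given CCCP (carbonyl cyanide m-chlorophenylhydrazone), a protonophore that dissipates the proton gradient across the inner mitochondrial membrane. All explants, controls included, spent 48 hours on filters, between medium and air, in MyeloCult with hydrocortisone. CCCP was used at 5 µM over the same 48 hours. The labels give the embryos as E10.5 and E11.5 in one place and as E10.5 alone in another, and name embryonic HSCs as the cell type although the RNA is described as that of explants. The number of embryos per library is not given in the sources used here, nor whether replicates were separate cultures, so the p-values below measure the spread between these libraries, which may be technical.

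The urea cycle turns ammonia from amino acids into urea. It starts in the mitochondrial matrix, where Cps1 makes carbamoyl phosphate and Otc joins it to ornithine, and continues in the cytosol with Ass1, Asl and Arg1. Cps1 and Otc are known mainly from hepatocytes and intestinal epithelium, whereas Ass1 is also made by endothelium and kidney tubule and Arg1 by some macrophages.

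Library totals were 48216849 and 37360968 counts without CCCP and 48827826 and 37579087 counts with it (replicates 1 and 2). Levels are given in CPM, counts scaled to library size, on which 3 counts, taken as the limit of detection, equal 0.0599 to 0.0826. Of 19837 genes that passed the filter on low counts, the quasi-likelihood test of edgeR called 0 after Benjamini-Hochberg adjustment (0% lower, 0% higher). At an unadjusted p under 0.05, 9.16% were lower and 5.45% higher with CCCP, and DESeq2 called 2.7% lower and 0.297% higher. Of 9 blood progenitor markers listed for the labelled cell type, 8 passed the filter (Kit at 47.6 to 63.2 CPM). Markers of endothelium, macrophages and mesonephric tubule were counted too. The presence of each cell type was not tested.

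The 8 genes showed 3 patterns. Abcc2, Otc, Hpd and Cps1 were lower in both treated libraries than in either control, Ass1 and Arg1 were well counted with overlapping groups, and Slco1b2 and Fbp1 lay near the limit of detection. That is 4 of 8 below both controls, where 24.8% of all genes that passed the filter lay below. Cps1 itself did not pass it, and nothing is read from the share because the genes were chosen on this contrast. The filter was passed by 5 of the 8, of which Abcc2, Otc and Hpd reached it through their untreated libraries. In bulk RNA, fewer cells of a type and less RNA per cell cannot be told apart. Nor, with 2 libraries a group, can cells lost in culture be told from explants that held fewer at the start.

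**Figure D1:**
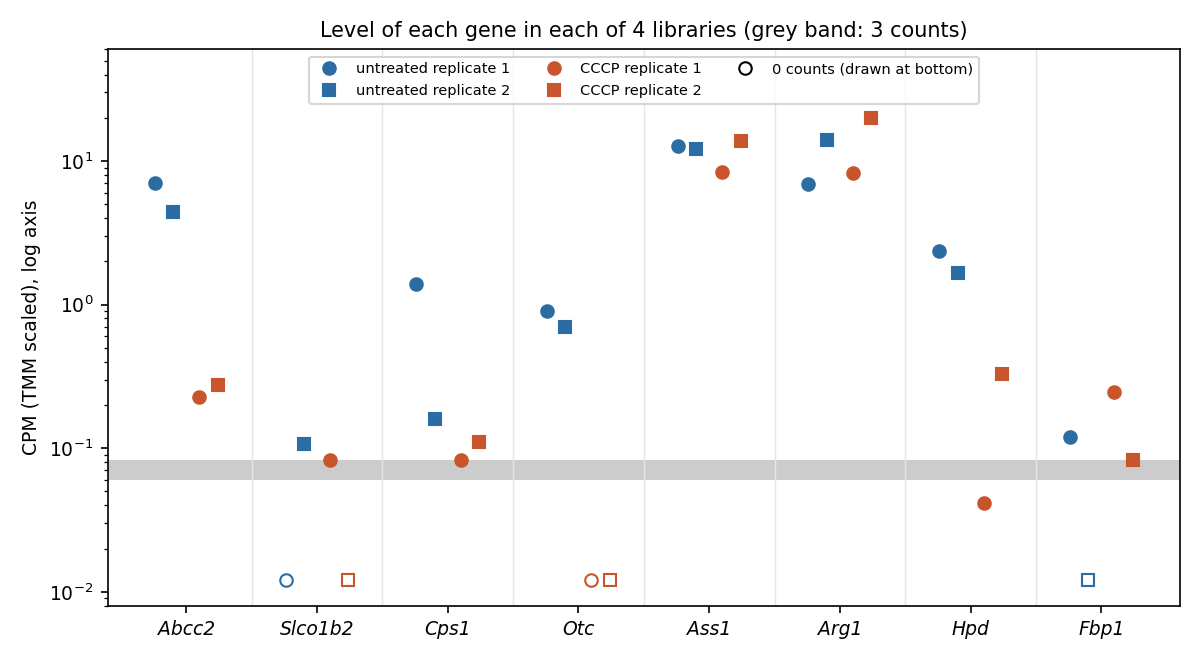
Level of each of the 8 genes in CPM (log axis) in each library, blue for untreated, orange for CCCP, circles for replicate 1, squares for replicate 2, open symbols for 0 counts, with a grey band at 3 counts. Abcc2, Otc and Hpd separate by treatment, Cps1 rests on 1 high control, Ass1 and Arg1 overlap, and Slco1b2 and Fbp1 lie around the band.

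The start regions of these genes differ in CG content. RefSeq promoters of build GRCm38.p6 matched 6 of the 8 genes, all but Cps1 and Arg1. The 150 bases before the start are shown, 5′ to 3′ with CG dinucleotides in capitals, for the 3 best measured genes that were lower with CCCP and for Ass1, whose groups overlapped, so that sparse and dense CG can be compared.
Abcc2: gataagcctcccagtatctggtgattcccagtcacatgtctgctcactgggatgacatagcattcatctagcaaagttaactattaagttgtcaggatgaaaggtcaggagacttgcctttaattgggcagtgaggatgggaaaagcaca
Otc: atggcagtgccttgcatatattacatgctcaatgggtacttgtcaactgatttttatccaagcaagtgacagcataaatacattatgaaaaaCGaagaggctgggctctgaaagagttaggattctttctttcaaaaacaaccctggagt
Hpd: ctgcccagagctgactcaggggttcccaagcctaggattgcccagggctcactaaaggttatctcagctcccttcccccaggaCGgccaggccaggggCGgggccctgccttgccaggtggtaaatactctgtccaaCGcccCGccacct
Ass1: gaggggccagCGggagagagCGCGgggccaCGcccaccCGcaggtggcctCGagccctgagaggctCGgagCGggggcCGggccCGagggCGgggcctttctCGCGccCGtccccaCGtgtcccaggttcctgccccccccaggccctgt
The stretches lie at chr19:43782158-43782307 on the plus strand (Abcc2), chrX:10252080-10252229 on the plus strand (Otc), chr5:123182724-123182873 on the minus strand (Hpd) and chr2:31470120-31470269 on the plus strand (Ass1). Abcc2 holds 0 CG at a GC content of 44.7%, Otc 1 at 38.7%, Hpd 4 at 64.0% and Ass1 15 at 78.7%. Over the 32851 promoters of the table the median at the same length was 4 CG. Ass1 lies in the CG-rich range, with 87.0% of promoters holding no more CG than it does. The remaining pair, Slco1b2 and Fbp1, hold 0 and 4 CG. These counts describe the letters only, and a relation to the levels was not tested.

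Abcc2 (chromosome 19, 43782308 to 43838332, plus strand, 33 merged exons) is the canalicular export pump for conjugated bilirubin and drug conjugates. Untreated explants held 6.99 and 4.44 CPM (350 and 166 counts), CCCP explants 0.226 and 0.275 CPM (11 and 10 counts). The treated libraries were close to each other and far below the lower control. Mean levels were 5.71 ± 1.80 CPM without and 0.251 ± 0.0346 CPM with CCCP (SD, n = 2 each), 22.8-fold lower with CCCP. Slco1b2 (chromosome 6, 141629452 to 141686646, plus strand), an uptake carrier of the sinusoidal membrane, had 0 and 4 counts in controls and 4 and 0 with CCCP. Its libraries were at or near the limit of detection, so no fold is given and a difference was not detectable at this depth.

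Otc (X chromosome, 10252230 to 10321024, plus strand, 11 merged exons), ornithine transcarbamylase, had 0.898 and 0.695 CPM in controls (45 and 26 counts) and 0 counts in both CCCP libraries. The controls were alike and the groups did not overlap. Against a floor of 3 counts per library, it was at least 11-fold lower with CCCP. Cps1 (chromosome 1, 67122426 to 67231267, plus strand, 39 merged exons), carbamoyl phosphate synthetase, had 1.40 and 0.160 CPM in controls (70 and 6 counts) and 0.0824 and 0.110 CPM with CCCP (4 and 4 counts). The controls differed 8.72-fold, and untreated replicate 2 stood barely above the treated libraries. Its exact Poisson 95% interval of 0.0588 to 0.349 CPM overlapped those of CCCP replicate 1 (0.0224 to 0.211) and CCCP replicate 2 (0.0300 to 0.282), so the separation of Cps1 rests on untreated replicate 1. Such intervals cover counting error only. The annotation in the files places Cps1 on an alternate contig too and its deposited length of 11148 bases sums both, so levels per length use the 5579 exon bases on chromosome 1. Whether the alignment held that contig is not given in the sources used here. If it did, reads that fit both places would not have been counted, and the counts and level of Cps1 would be too low.

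Ass1 (chromosome 2, 31470270 to 31520670, plus strand, 16 merged exons), argininosuccinate synthetase, had 12.8 and 12.2 CPM in controls (641 and 455 counts) and 8.40 and 13.7 CPM with CCCP (408 and 498 counts). The lowest and the highest library were both CCCP libraries. Means of 12.5 ± 0.451 and 11.1 ± 3.76 CPM (SD, n = 2 each) differed by less than the spread of the treated libraries. Arg1 (chromosome 10, 24915207 to 24927470, minus strand, 8 merged exons), arginase 1, had 6.95 and 13.9 CPM in controls (348 and 520 counts) and 8.24 and 19.9 CPM with CCCP (400 and 721 counts). Replicate 2 exceeded replicate 1 in both groups, 2.0-fold in controls and 2.41-fold with CCCP, and the group means of 10.4 ± 4.91 and 14.0 ± 8.22 CPM (SD, n = 2 each) overlapped. Arg1 shares exon bases with Gm40616 on the opposite strand, and since counting ignored strand, reads on those bases could not be assigned by strand. Leaving out 1 library turned the direction of both genes. The log2 fold change of Ass1 went from -0.18 to 0.14 without CCCP replicate 1, and that of Arg1 from 0.43 to -0.34 without CCCP replicate 2.

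Hpd (chromosome 5, 123171807 to 123182723, minus strand, 14 merged exons) encodes the dioxygenase that converts 4-hydroxyphenylpyruvate to homogentisate. Controls held 2.36 and 1.66 CPM (118 and 62 counts), CCCP explants 0.0412 and 0.331 CPM (2 and 12 counts). The groups did not overlap, and the treated libraries were themselves 8.03-fold apart. Means were 2.01 ± 0.494 and 0.186 ± 0.205 CPM (SD, n = 2 each), 10.8-fold lower with CCCP. The log2 fold change was -3.50, with -2.59 when CCCP replicate 1 was left out and -5.52 when CCCP replicate 2 was. Fbp1 (chromosome 13, 62864753 to 62888298, minus strand), the fructose bisphosphatase of liver and kidney, had 6 and 0 counts in controls and 12 and 3 with CCCP. Its groups overlapped at 0 to 0.247 CPM.

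Per kilobase of exon, mean levels in untreated explants (SD, n = 2) were 7.65 ± 0.277 CPM for Ass1, 7.06 ± 3.33 for Arg1, 1.43 ± 0.353 for Hpd, 1.01 ± 0.320 for Abcc2, 0.166 ± 0.0301 for Otc, 0.140 ± 0.157 for Cps1, 0.0349 ± 0.0493 for Fbp1 and 0.0158 ± 0.0224 for Slco1b2. Neighbours in that order overlapped, apart from 2 steps. Arg1 lay above Hpd and Abcc2 above Otc in both controls. The genes with the highest levels, Ass1 and Arg1, were those whose groups overlapped with well measured counts.

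Among the other genes of the urea cycle, Asl, the lyase between Ass1 and Arg1, had 12.3 and 13.9 CPM in controls and 15.2 and 18.2 CPM with CCCP. It lay higher in both treated libraries, at a log2 fold change of 0.35 ± 0.187 (standard error) that edgeR did not call (adjusted p 0.430). The mitochondrial ornithine carrier Slc25a15 and aspartate carrier Slc25a13 overlapped at 15.5 to 19.2 CPM and 23.9 to 43.7 CPM. Nags, which makes the activator of Cps1, had 14 and 16 counts in controls and 4 and 10 with CCCP. Car5a, a mitochondrial carbonic anhydrase that supplies bicarbonate, had 13 and 9 counts in controls and 3 and 3 with CCCP, and Slc25a2, another ornithine carrier, overlapped at 16 and 20 against 16 and 6 counts. Of these 6 genes, 2 lay below and 1 above both controls (33.3% and 16.7%, against 24.8% and 24% of all genes). Their median log2 fold change was -0.32 against -0.01 over all genes tested. edgeR called 0 of them (adjusted p 0.361 to 0.878), DESeq2 called 0 of the 3 to which it gave an adjusted p, and 0 had an unadjusted p under 0.05.

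**Figure D2:**
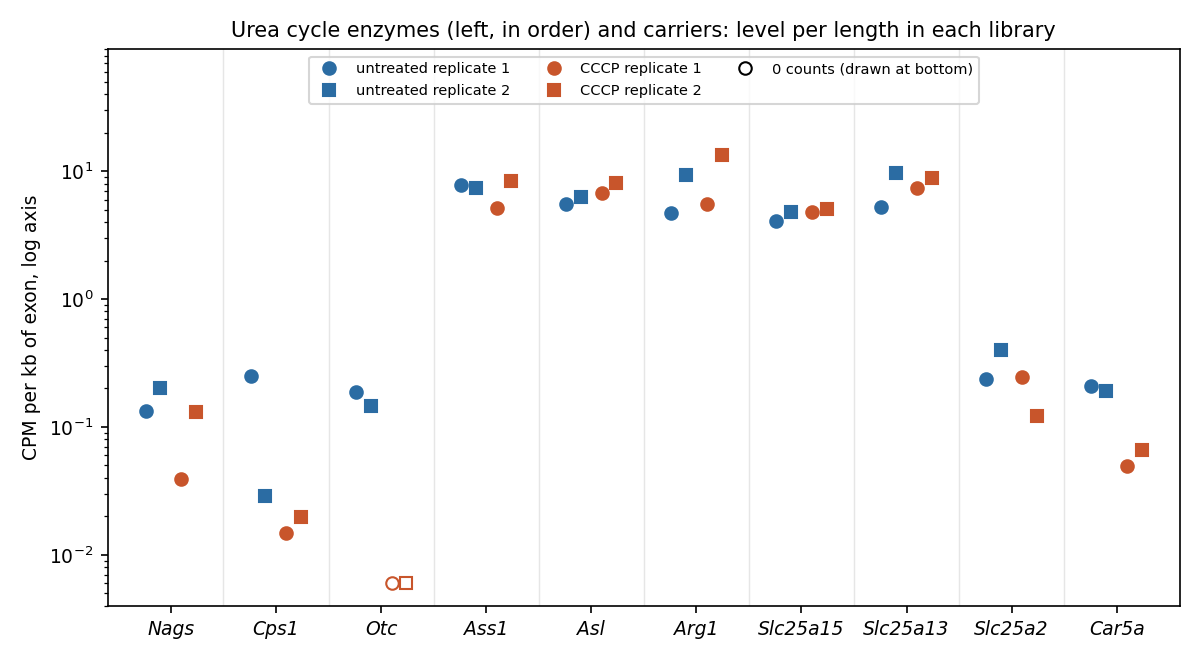
Level per length of urea cycle enzymes in pathway order, then carriers and Car5a, in CPM per kilobase of exon (log axis), blue for untreated, orange for CCCP, circles for replicate 1, squares for replicate 2, open symbols for 0 counts. Ass1, Asl, Arg1, Slc25a15 and Slc25a13 lie above the other 5 genes in every library, and Otc is at 0 counts in both CCCP libraries.

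In phenylalanine and tyrosine breakdown, the enzymes next to Hpd were low with CCCP. Hgd, which acts after Hpd, had 1.24 and 1.12 CPM in controls and 0.0824 and 0.0551 CPM with CCCP, a log2 fold change of -4.02 ± 0.606. Tat, the aminotransferase before Hpd, had 4 and 6 counts in controls, 0 in both treated libraries, and too few to be tested. Fah, the last enzyme of the path, had 8.04 and 6.87 CPM in controls and 4.12 and 4.63 CPM with CCCP. Gstz1, Qdpr and Pcbd1, which serve other tissues too, had log2 fold changes of 0.00, 0.24 and -0.37. Of 6 genes tested, edgeR called 0 (adjusted p 0.144 to 0.999), 3 lower and 0 higher had an unadjusted p under 0.05, and DESeq2 called 2 lower, Hgd among them.

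The pathway and marker lists were chosen with earlier results of these data known, so their shares and calls are a description. Of 123 further genes listed for these pathways, 95 were tested. Both CCCP libraries lay below both controls for 44 of them (46.3%, against 24.8% of all genes) and above for 15 (15.8%, against 24%). An unadjusted p under 0.05 was reached by 29 lower and 2 higher (30.5% and 2.11%), edgeR called 0, and DESeq2 called 13 lower and 0 higher. The median log2 fold change was -0.38.

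**Figure D3:**
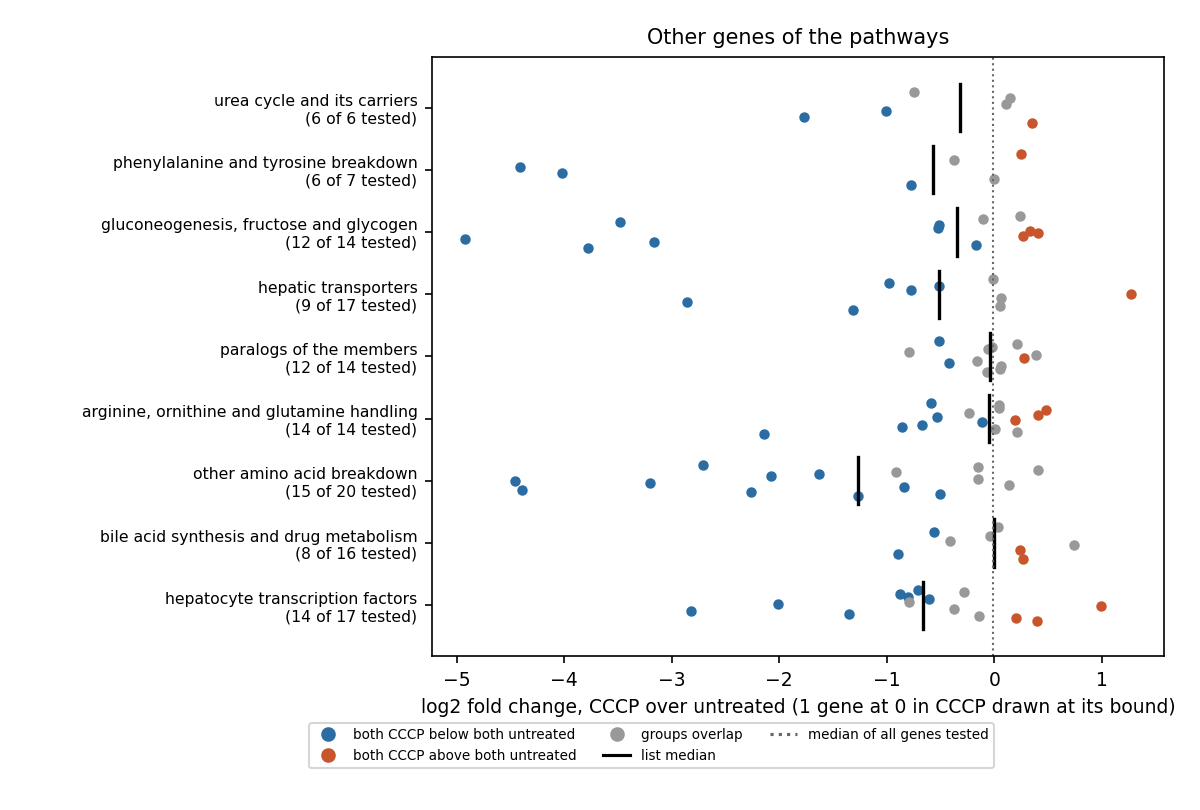
Log2 fold change of CCCP over untreated for the tested genes of 9 pathway lists, blue where both CCCP libraries lie below both controls, orange where both lie above, grey where groups overlap, with black bars at list medians and a dotted line at the median of all genes. The list of other amino acid breakdown has the lowest median, -1.27, and the listed paralogs, Abcc6 not among them, scatter around the dotted line.

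Breakdown of other amino acids had a median of -1.27 over 15 genes tested. Of them, 10 lay below and 0 above both controls (66.7% and 0%, against 24.8% and 24% of all genes). Bhmt, which remethylates homocysteine, had 96 and 42 counts in controls and 0 in both treated libraries, at least 21-fold lower against 3 counts per library. Ftcd, of histidine breakdown, had 74 and 27 counts in controls and 2 and 2 with CCCP, a ratio of controls to treated of 24.5, with an exact counting interval of 9.27 to 91.6. Cth and Kynu overlapped, at log2 fold changes of 0.14 and 0.41. edgeR called 0 genes of the list (adjusted p 0.144 to 0.956), 7 lower and 0 higher had an unadjusted p under 0.05, and DESeq2 called 3 lower.

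For gluconeogenesis, fructose and glycogen the median over 12 genes was -0.34. Of them, 7 lay below and 3 above both controls (58.3% and 25%, against 24.8% and 24% of all genes). Gckr, the regulator of glucokinase, had 1.62 and 1.39 CPM in controls and 0.165 and 0.165 CPM with CCCP, a log2 fold change of -3.17 ± 0.497 that edgeR did not call (adjusted p 0.144). Pck2 and Pcx, mitochondrial enzymes that many tissues make, lay higher in both treated libraries, at 0.41 ± 0.188 and 0.34 ± 0.132 (edgeR adjusted p 0.378 and 0.329). G6pc, the final enzyme, had 0 counts in every library. The exact Poisson 95% upper limit at 0 counts was 0.0736 CPM in untreated replicate 1 and 0.102 CPM in CCCP replicate 2. edgeR called 0 genes here, 5 lower and 1 higher had an unadjusted p under 0.05, and DESeq2 called 3 lower.

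Hepatic transporters other than Abcc2 and Slco1b2 were tested for 9 of 17 genes, with a median of -0.52. Of the 9, 5 lay below and 1 above both controls (55.6% and 11.1%, against 24.8% and 24% of all genes). Abcc6, a relative of Abcc2 made mainly in liver and kidney, had 1.94 and 1.04 CPM in controls and 0.165 and 0.248 CPM with CCCP, a log2 fold change of -2.86 ± 0.579. It was the 1 gene of the list called by DESeq2, edgeR called 0 (adjusted p 0.175 to 0.990), and 3 lower and 0 higher had an unadjusted p under 0.05. The copper exporter Atp7b had -0.78 ± 0.228, and Abcg2 overlapped at 0.06. Abcg5, a sterol exporter, had 8 and 10 counts in controls and 18 and 24 with CCCP. It shares exon bases with Abcg8 on the opposite strand, and reads there could not be assigned by strand. Abcg8 went the other way, with 17 and 4 counts in controls and 2 and 0 with CCCP, and was not tested. Abcb11, the bile salt export pump, had 18 and 6 counts in controls, 0 in both treated libraries, and was not tested.

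Paralogs of the 8 genes were tested for 12 of 14. Of these, 2 lay below and 1 above both controls (16.7% and 8.33%, against 24.8% and 24% of all genes). The median was -0.04, and 1 lower and 0 higher had an unadjusted p under 0.05. edgeR (adjusted p 0.333 to 0.962) and DESeq2 called 0. Cad, whose synthetase domain feeds pyrimidine synthesis, had 156 and 177 CPM in controls and 185 and 217 CPM with CCCP. Arg2, the mitochondrial arginase, overlapped at 0.882 to 1.50 CPM and Hpdl at 0.499 to 1.10 CPM, while Fbp2 had 6 counts in each library and was not tested. Among Abcc2 paralogs, Abcc1, Abcc3 and Abcc4 overlapped (-0.07, 0.05 and 0.06), and Abcc5 lay lower in both treated libraries at -0.42 ± 0.166. Among Slco1b2 paralogs, Slco5a1 lay lower in both at -0.52 ± 0.230, and Slco1c1, Slco2a1, Slco3a1 and Slco4a1 overlapped (-0.79, -0.05, -0.02 and 0.21). Slco1a4 had 0 counts in every library. Relatives filed only under hepatic transporters are outside these counts. Among them, Abcc6 had -2.86 ± 0.579 and was called by DESeq2, and Slco2b1 had -0.01.

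Arginine, ornithine and glutamine handling had a median of -0.05 over 14 genes. Of them, 6 lay below and 3 above both controls (42.9% and 21.4%, against 24.8% and 24% of all genes). Slc7a2, a cationic amino acid carrier, had 55.4 and 48.1 CPM in controls and 32.2 and 36.7 CPM with CCCP, a log2 fold change of -0.59 ± 0.139 that edgeR did not call (adjusted p 0.206). Oat and Glul, enzymes of ornithine and glutamine, had 0.48 ± 0.118 and 0.19 ± 0.127. edgeR called 0 genes of the list, 3 lower and 1 higher had an unadjusted p under 0.05, and DESeq2 called 1 lower. In bile acid synthesis and drug metabolism 8 of 16 genes were tested. Below both controls lay 2 and above 2 (25% each, near the 24.8% and 24% of all genes). edgeR and DESeq2 called 0 genes of that list, with 2 lower and 0 higher at an unadjusted p under 0.05. Hsd3b7 and Aldh1l1 had -0.56 and -0.90, Amacr and Adh1 0.24 and 0.27. Cyp7a1, the rate-limiting enzyme of bile acid synthesis, had 6 and 12 counts in controls, 0 in both treated libraries, and was not tested.

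Transcription factors of hepatocytes had a median of -0.66 over 14 genes. Of them, 7 lay below and 3 above both controls (50% and 21.4%, against 24.8% and 24% of all genes). Hnf4a, a nuclear receptor of the hepatocyte programme, had 8.96 and 8.31 CPM in controls and 2.45 and 1.82 CPM with CCCP, a log2 fold change of -2.01 ± 0.271 (edgeR adjusted p 0.144). Onecut2 had -0.88 ± 0.194. Cebpa, shared with myeloid cells, lay higher in both treated libraries at 0.40 ± 0.210 (edgeR adjusted p 0.425). edgeR called 0 factors, 5 lower and 0 higher had an unadjusted p under 0.05, and DESeq2 called 3 lower.

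Hepatocyte markers outside these pathways were read beside the 8 genes. They were chosen with earlier results of these data known, so their share, p-values and calls describe the list and do not test it. All 12 lay below both controls in both treated libraries (against 24.8% of all genes), and their summed level was 1587 and 924 CPM in controls but 6.55 and 77.7 CPM in CCCP replicates 1 and 2. Alb, the main plasma protein of hepatocytes, had 18845 and 5652 counts in controls and 8 and 404 with CCCP, and Apoh, Ahsg and Fga were at 0 in CCCP replicate 1. edgeR called 0 of the 12 (adjusted p 0.144 to 0.229), all had an unadjusted p under 0.05, and DESeq2 called 6. Without the filter on low counts edgeR called 12 of them, and without CCCP replicate 2 it called 10. The sum stood at 0.522% and 6.19% of its untreated mean in CCCP replicates 1 and 2. Hpd, at 2.05% and 16.5%, was likewise higher in replicate 2, while Abcc2 stood at 3.97% and 4.82% and Otc at 0 in both. Apoa2 and Rbp4, an apolipoprotein and the plasma carrier of retinol, had log2 fold changes of -4.52 ± 0.575 and -2.55 ± 0.353. That of Apoa2 was -3.84 without CCCP replicate 1 and -5.66 without CCCP replicate 2. The part of hepatocyte content in the levels of the 8 genes was not tested.

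**Figure D4:**
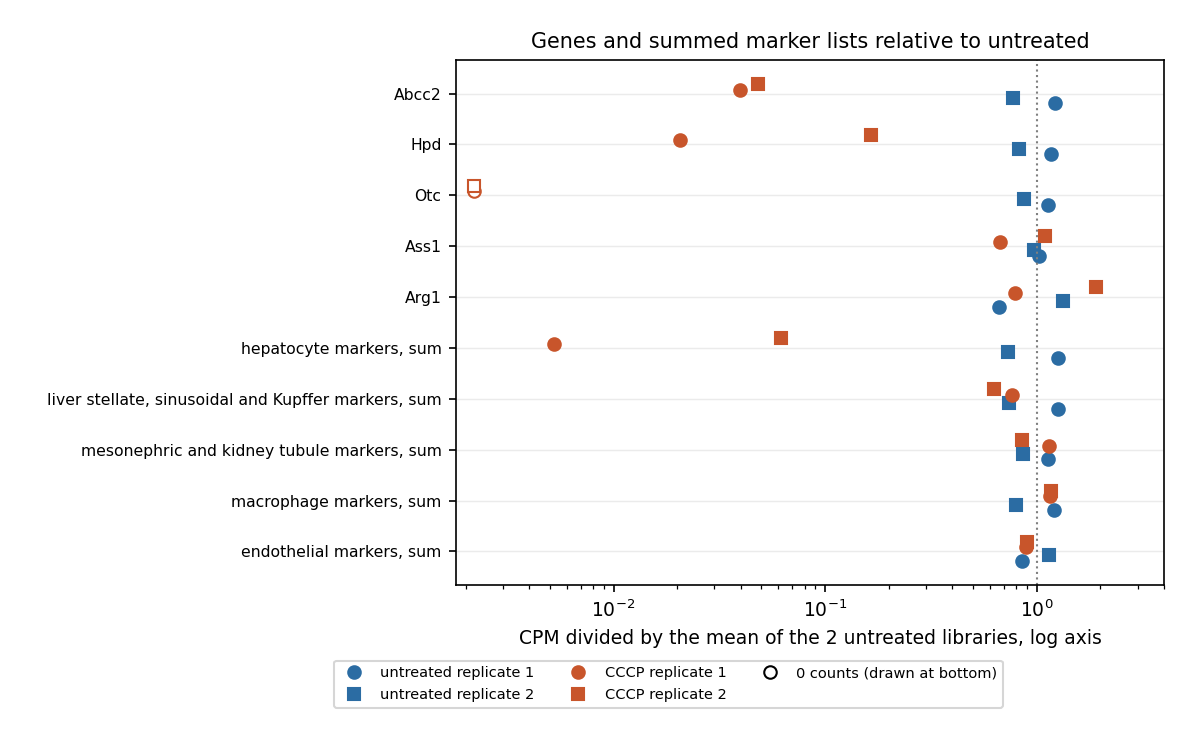
CPM of 5 genes and summed CPM of 5 marker lists, divided by the mean of the untreated libraries (log axis, dotted line at the mean), blue for untreated, orange for CCCP, circles for replicate 1, squares for replicate 2, open symbols for 0 counts. Abcc2, Hpd, Otc and the hepatocyte sum lie far left of the line with CCCP, and the other rows stay near it.

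Of 7 tested genes listed for stellate, sinusoidal and Kupffer cells of the liver, 5 lay below both controls (71.4%, against 24.8% of all genes). The summed level of the list overlapped, at 218 and 128 CPM in controls and 133 and 108 CPM with CCCP. Whether such cells were present in the explants was not tested. Lrat, of stellate cells, had 25 and 25 counts in controls and 2 and 0 with CCCP, a ratio of 24.2, with an exact counting interval of 6.37 to 206. Lyve1, of sinusoidal and lymphatic endothelium, had 6.97 and 6.49 CPM in controls and 1.96 and 3.55 CPM with CCCP, and Lhx2 overlapped at 0.48. edgeR called 0, 5 lower and 0 higher had an unadjusted p under 0.05, and DESeq2 called 1, Lyve1.

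Other cell types known to make Ass1 or Arg1 gave overlapping sums. Macrophage markers summed to 236 and 157 CPM in controls and 228 and 229 CPM with CCCP. C1qa and C1qb lay higher in both treated libraries at 0.71 ± 0.196 and 0.58 ± 0.175, and Mrc1 and Lyz2 overlapped at -0.32 and -0.15. Tubule markers summed to 83.5 and 63.6 CPM in controls and 84.6 and 62.7 CPM with CCCP, with Cdh16 and Slc22a6 at 0.84 ± 0.367 and 0.97 ± 0.491 and Pax2 and Lrp2 at -0.14 and -0.08. Endothelial markers summed to 459 and 612 CPM in controls and 477 and 483 CPM with CCCP, with Tek and Kdr at -0.75 and -0.31 and Emcn and Cldn5 at 0.18 and 0.11. In these 3 lists edgeR and DESeq2 called 0 genes, with 2 macrophage markers higher, 1 endothelial marker lower and 0 tubule markers at an unadjusted p under 0.05. Without the filter on low counts edgeR called 2 macrophage markers, C1qa and C1qb, both higher, and 0 endothelial or tubule markers. Their part in the levels of Ass1 and Arg1 was not tested.

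Visceral endoderm markers summed to 2.46 and 6.63 CPM in controls and 3.42 and 2.78 CPM with CCCP, and those of gut and pancreas to 1.68 and 4.78 against 3.31 and 3.80 CPM. The named genes of the first had log2 fold changes of -0.71 (Rhox5), -0.46 (Amn) and 0.26 (Slc13a4), those of the second -0.59 (Ptf1a), -0.19 (Cdx2) and 0.74 (Vil1). The sums of both lists overlapped, with 0 genes called by edgeR or DESeq2 and 0 at an unadjusted p under 0.05. Blood progenitor markers summed to 164 and 172 CPM in controls and 131 and 147 CPM with CCCP, lower in both treated libraries than in either control. Of 8 markers tested, 7 had a negative log2 fold change, against 10086 of all 19837 genes. Below both controls lay 1 and above 1 (12.5% each, against 24.8% and 24% of all genes). Among the 8 markers, Kit had -0.21 and Spi1 0.42. Ptprc, the leukocyte antigen CD45, had -0.96 ± 0.237, which DESeq2 called and edgeR did not (adjusted p 0.216).

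The genes closest to the mean profile of the 5 tested members over the 4 libraries, by Euclidean distance of centred log2 CPM, were Rbp4 (0.329), Slc13a3 (0.345), Pnliprp1 (0.358), Aldh8a1 (0.388) and Cpn1 (0.391). That mean mixes 3 genes that separate by treatment with 2 that do not, and the likeness is a description over 4 libraries.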

How the data were processed

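The files hold raw counts per gene, which the authors obtained with featureCounts 2.0.3 from exons of an mm10 RefSeq annotation, per the file headers. No option for strand, read pairs or multi-mapping reads was set there. Reads on bases shared by opposite-strand genes therefore could not be assigned by strand, each read counts singly and paralogs are uncertain. The annotation places 2057 genes on a chromosome and an alternate contig, Cps1 among them. Cldn5, Rhox5, Serpina1a and Gatm of the lists have 2 placements as well, and the limit on counts given for Cps1 applies to them too. HISAT2 and SAMtools are named in the submitters' processing notes. The column header of untreated replicate 1 does not match its title exactly, and its file was assigned by its GEO record.

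CPM used TMM scaling. Genes were tested with edgeR 4.0.16 (R 4.3.3; filterByExpr, minimum count 10 and total 15; two-sided quasi-likelihood test; Benjamini-Hochberg threshold 0.05), with standard error as log2 fold change over the square root of F. With 2 libraries a group an exact permutation p cannot fall under 0.333. Alternatives were DESeq2 1.42.0, its size factors, total counts, no filter, a replicate block, prior count 2 and leaving out each library. DESeq2 gave no adjusted p to 1923 genes, which its counts of calls leave out. Members and lists were chosen with earlier results of these data known. Named were the members, all tested genes of the urea cycle, tyrosine and paralog lists, the 2 smallest p-values in each direction of other lists and the 5 nearest profiles, of which some are not reported here. Tat, Fbp2, Slco1a4, Abcb11, Abcg8, G6pc, Cyp7a1, Alb, Apoh, Ahsg and Fga lay outside that rule and were chosen after their values were seen. Intervals are exact Poisson, or Clopper-Pearson for ratios, at 95%.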

Additional observations from a re-analysis of the deposited data

How the results depend on the processing

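edgeR called 0 genes with TMM, with DESeq2 size factors, with total counts and with prior count 2. Without the filter it called 1107 genes (23 pathway, 18 marker). DESeq2 called 594 (13 and 8) and the replicate block 2118 (24 and 19), with all 12 hepatocyte markers called under the block. The block also called 2 macrophage markers, C1qa and C1qb, both higher, and 1 endothelial marker, Tek, lower. It called 1 blood progenitor marker and 3 of the stellate, sinusoidal and Kupffer list as well. The cause of these differences between fits was not tested. Deviations of same-numbered libraries correlated at 0.36, but the labels do not tell what the numbers stand for. With a library left out, calls ranged from 1 to 34 over all genes (34 without untreated replicate 2, 22 without CCCP replicate 2), from 0 to 1 over pathway genes and from 0 to 10 over markers (10 without CCCP replicate 2).

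Total counts turned Abcc3 to -0.00793 and Gstz1 to -0.0561. The replicate block turned Cdx2 and the gut and pancreas median to 0.21. The bile acid median turned to 0.00209 with DESeq2 size factors, 0.0103 without the filter, 0.00729 in DESeq2 and 0.0370 with the block. With each library left out, log2 fold changes that changed sign ran for Abcc1 from -0.14 to 0.0292, Abcc3 from -0.24 to 0.47, Abcc4 from -0.19 to 0.39, Abcg2 from -0.0908 to 0.20, Arg1 from -0.34 to 1.03, Arg2 from -0.57 to 0.15, Ass1 from -0.57 to 0.14, Cdx2 from -0.998 to 1.75, Cldn5 from -0.0698 to 0.35, Cth from -0.36 to 0.93, Emcn from -0.0325 to 0.46, Gstz1 from -0.14 to 0.18, Hpdl from -0.0696 to 1.07, Kynu from -0.00622 to 1.09, Lrp2 from -0.36 to 0.30, Lyz2 from -0.51 to 0.36, Pax2 from -0.47 to 0.33, Pcbd1 from -0.75 to 0.17, Slc13a4 from -0.0175 to 0.61, Slc25a13 from -0.25 to 0.63, Slco1c1 from -1.45 to 0.61, Slco2a1 from -0.27 to 0.21, Slco3a1 from -0.17 to 0.11, Slco4a1 from -0.24 to 0.56. Medians ran for bile acid synthesis and drug metabolism from -0.38 to 0.19, endothelial from -0.35 to 0.12, gut and pancreas endoderm from -0.73 to 1.17, macrophage from -0.0970 to 0.49, mesonephric and kidney tubule from -0.0620 to 0.41, paralogs of the members from -0.17 to 0.0806, visceral endoderm from -0.87 to 0.30. Abcc2 ran from -4.78 to -4.13 and kept its sign. Depth limits Slco1b2 and Fbp1, the gap between the controls limits Cps1, and 2 libraries a group limit every comparison.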
